A study of Mus musculus with 6 samples.

Results

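Axon guidance ligands and receptors were taken by gene symbol: every gene whose full symbol was Sema, Plxn, Nrp, Efn, Epha, Ephb, Ntn, Slit, Robo, Unc5 or Flrt followed by its digit or letter code, together with Dcc, Neo1, Rgma and Rgmb. This gave 77 of the 38926 gene symbols in the count files, and the rule uses no measured value. They comprise 20 semaphorins, 8 ephrins, 6 netrins including the netrin-G proteins, 2 repulsive guidance molecules (RGM), 3 slits, 3 FLRT proteins, 11 semaphorin receptors (plexins and neuropilins), 14 Eph receptors, 6 netrin and RGM receptors and 4 slit receptors. Of 12 symbols that begin in the same way but code for other proteins, such as the Slitrk and Ephx genes, none was used.

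The RNA came from dorsal root ganglia, which flank the spinal cord and house the cell bodies of sensory neurons, removed whole from lumbar levels L3, L4 and L5 of wild type C57BL/6 mice, all male and aged 6 to 8 weeks. The burn group held 3 libraries taken 3 days after a burn injury, and the control group held 3 libraries from mice labelled as controls. Of the burn libraries, 1 is titled BURN_IP, without a number, and is called burn 3 here. IP may stand for ipsilateral, and no side is stated for the other 2. The labels call the samples both neurons and whole ganglia, and do not say whether the libraries of a group came from separate animals or pools, and p-values therefore reflect only how these libraries vary, which may be technical.

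Guidance ligands steer growing axons by attraction or repulsion. Semaphorins act on plexins, the secreted class through neuropilin co-receptors. Ephrins act on Eph receptor kinases, and both partners sit on cell membranes. The secreted netrins act on Dcc and Unc5 receptors. RGM proteins act on neogenin, the product of Neo1, and slits act on Robo receptors. FLRT proteins are membrane adhesion proteins that bind Unc5 receptors and latrophilins. In the adult many of these genes remain active in neurons, glia, vessels and connective tissue, and several are known for roles in axon regrowth and in vessel patterning.

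Total reads assigned to genes were 22023565, 30074469 and 70002671 in burn libraries 1, 2 and 3, and 35991111, 17273908 and 81968142 in control libraries 1, 2 and 3. Burn 3 and control 3 are called the deeper libraries, and they stood apart from the other 4 on the first principal component of all genes. Summed levels of 10 pan-neuronal genes were 11235 to 13800 CPM (reads scaled to a common library size) in burn libraries and 12341 to 17631 CPM in control libraries, so neuronal transcripts were present in all 6. In RNA from whole ganglia, fewer cells of a type and less RNA per cell cannot be told apart.

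The guidance genes as a group were close to control level 3 days after the burn. No guidance gene passed the test, edgeR's quasi-likelihood test with a Benjamini-Hochberg adjusted p under 0.05 over all 17534 genes tested, in which 4 genes (0.0228%) were called higher and 0 (0.00%) lower. Of the 77 members, 76 were tested. Epha1 was left out for low counts, with 1, 1 and 13 reads in the burn libraries and 4, 4 and 10 reads in the control libraries. The median log2 fold change, burn over control, was 0.03 over the 76 members and 0.01 over all tested genes. For 64 members (84.2%) it lay within 0.3 of 0, against 83.8% of all tested genes.

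At an unadjusted p under 0.05, 7 members were higher and 0 lower, where the same threshold took 2.04% of all genes as higher and 0.924% as lower. The 7 were Flrt3, Sema6a, Plxna4, Dcc, Sema4f, Efna5 and Epha6, or 9.21% of the tested members. In 9 members (11.8%) every burn library lay above every control library, against 4.33% of all genes, and in 0 members did every burn library lie below, against 2.91%. These 9 were the first 6 of the 7 together with Plxnc1, Sema4d and Slit1. A positive sign was found for 46 members (60.5%), against 52.1% of all genes. These shares are descriptions without a test. With the mean log2 level of spinal cord markers as a covariate, added after seeing the data, the same threshold took 4 members as higher and 2 as lower, beside 143 genes higher and 337 lower over all genes. In the 4 shallower libraries alone it took 7 members as higher and 0 as lower, beside 299 genes higher and 430 lower.

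**Figure D1:**
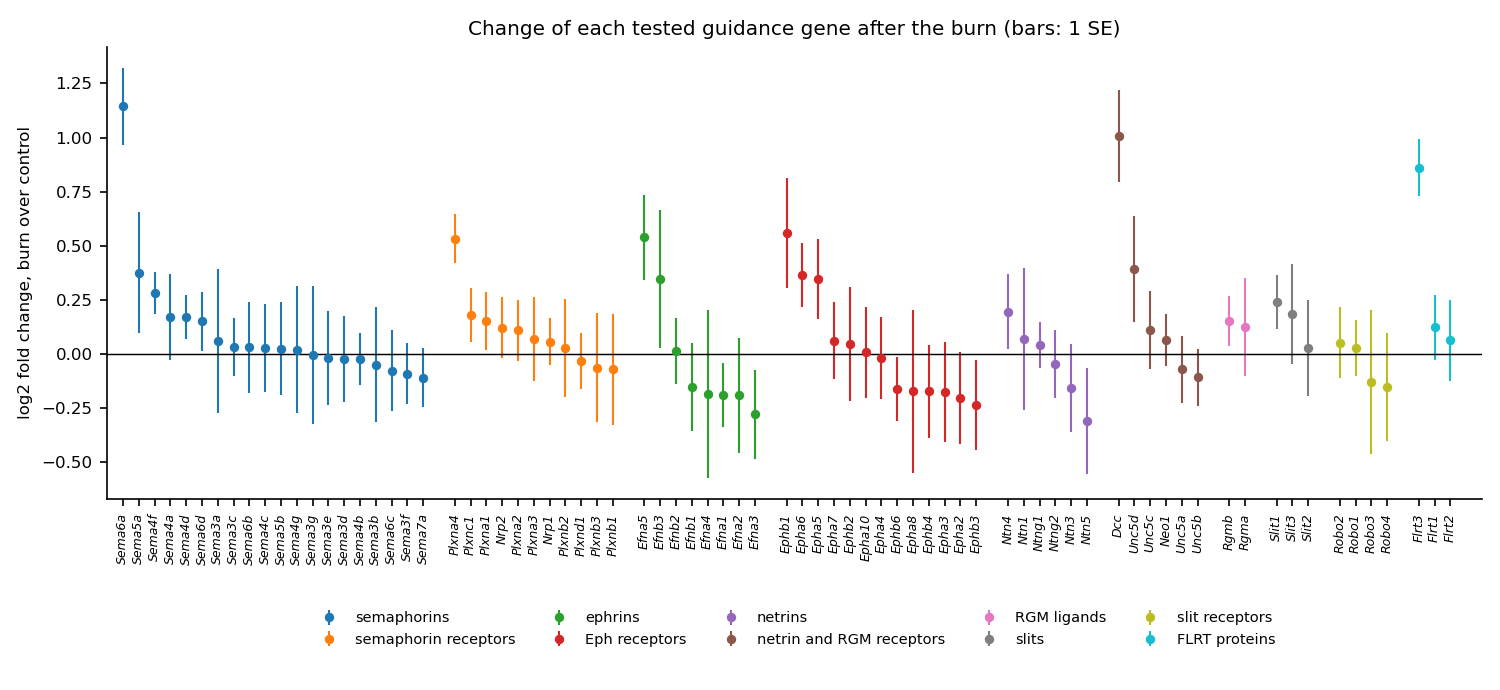
Log2 fold change, burn over control, of each of the 76 tested guidance genes, grouped by family on the horizontal axis; points are edgeR estimates over 3 burn and 3 control libraries and bars are 1 standard error. Sema6a, Dcc, Flrt3 and Plxna4 had the lowest p of the set, which is not drawn. The other 72 genes lie between -0.31 and 0.56, a range that also holds Plxna4.

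Flrt3 codes for a membrane protein that binds Unc5 receptors and latrophilins. It had 39.0, 40.3 and 43.0 CPM in burn libraries 1, 2 and 3, against 22.8, 18.9 and 25.4 CPM in control libraries 1, 2 and 3. All 3 burn values lay above all 3 control values, and the burn values were close to each other. The means were 40.8 ± 2.05 CPM after the burn and 22.4 ± 3.29 CPM in controls (SD, n = 3 each). The log2 fold change was 0.86 with a standard error of 0.13, and edgeR's adjusted p = 0.283, with rank 14 by p among the tested genes.

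The gene lies on the minus strand at chr2:140650914-140671469 (GRCm38), wholly inside the span of Macrod2 on the other strand, with 0 shared exon bases. Macrod2 had 990, 1676 and 4536 reads in the burn libraries and 2139, 824 and 6106 reads in the control libraries. Whether counting used strand is not stated in the sources used here, so reads from introns of Macrod2 were not separable from exon reads of Flrt3 by the annotation alone. Between the deeper libraries the log2 difference in Flrt3 was 0.76, and among the 4 shallower ones 0.93.

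Sema6a codes for a transmembrane semaphorin, a ligand of A-class plexins. Its levels were 41.2, 29.4 and 36.8 CPM in the burn libraries and 14.4, 19.7 and 14.6 CPM in the control libraries. The lowest burn value, in burn 2, was above the highest control value, in control 2. Means were 35.8 ± 5.96 CPM after the burn and 16.2 ± 2.998 CPM in controls (SD, n = 3 each), the widest fold difference of any tested member at 2.21-fold. Its log2 fold change of 1.15 had a standard error of 0.18, and it ranked 15 by p (edgeR adjusted p = 0.283). The log2 difference was 1.32 between the deeper libraries and 1.04 among the shallower ones.

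Plxna4 codes for a plexin that receives Sema6a directly and class 3 semaphorins together with neuropilin 1. It had 200, 193 and 207 CPM after the burn, against 125, 149 and 141 CPM in controls. The groups did not overlap, and Plxna4 was the most abundant in CPM of the 7 members below the unadjusted threshold. The means of 200 ± 7.22 and 138 ± 12.4 CPM, burn and control (SD, n = 3 each), gave a log2 fold change of 0.53 with a standard error of 0.11. It ranked 31 by p (edgeR adjusted p = 0.902). The log2 difference was 0.55 between the deeper libraries and 0.53 among the shallower ones. The 4 A-class plexins all had positive log2 fold changes, with a median of 0.13, and Plxna4 had the highest of them.

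Dcc codes for the attractive receptor of netrin 1. It was scarce: 38, 48 and 110 reads in the burn libraries and 29, 15 and 66 reads in the control libraries. At 1.68, 1.59 and 1.67 CPM after the burn, against 0.792, 0.835 and 0.829 CPM in controls, the groups did not overlap. Each group was narrow, but with so few reads that narrowness is no measure of precision. Dcc ranked 33 by p, at a log2 fold change of 1.01 with a standard error of 0.21 (edgeR adjusted p = 0.902). The log2 difference was 0.93 between the deeper libraries and 0.92 among the shallower ones. Per exon length Dcc averaged 0.125 RPKM (CPM divided by exon length in kilobases) after the burn and 0.0622 RPKM in controls, near the bottom of the guidance set in both groups.

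**Figure D2:**
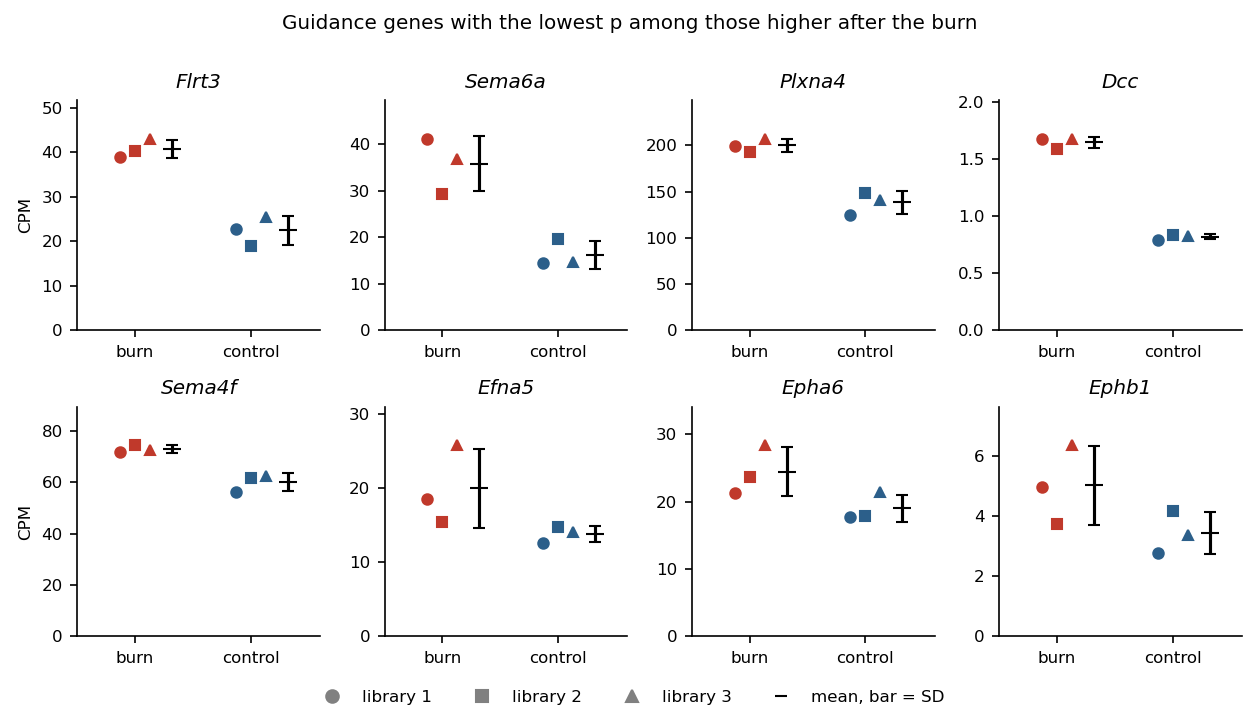
CPM in each library of the 8 guidance genes with the lowest p among those with a positive log2 fold change; symbols are libraries 1, 2 and 3 of each group, and the bar beside them is the mean ± SD (n = 3). Flrt3, Sema6a, Plxna4, Dcc, Sema4f and Efna5 show no overlap between burn and control; Epha6 and Ephb1 overlap.

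The other members below the unadjusted threshold differed less. Sema4f, a membrane-bound semaphorin of class 4, had 71.7, 74.5 and 72.6 CPM after the burn and 56.1, 61.5 and 62.4 CPM in controls. The burn libraries were nearly equal and all above the controls, with a log2 fold change of 0.28, standard error 0.10 and rank 177 by p. Efna5, an ephrin anchored to the membrane by a lipid and a ligand of EphA receptors, had 18.6, 15.5 and 25.8 CPM after the burn and 12.6, 14.7 and 14.0 CPM in controls. Burn 3 held the high value, and burn 2 was only just above control 2. The log2 fold change of Efna5 was 0.54 (standard error 0.20, rank 256 by p), with 0.87 between the deeper libraries and 0.32 among the shallower ones. Epha6, one of the EphA receptors, had 21.2, 23.6 and 28.4 CPM after the burn and 17.7, 17.9 and 21.4 CPM in controls. Burn 1 lay just below control 3, and the log2 fold change was 0.36 (standard error 0.15, rank 412 by p).

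Ephb1, a receptor of B-class ephrins, followed at rank 651 by p with 4.95, 3.74 and 6.36 CPM after the burn and 2.79, 4.17 and 3.36 CPM in controls. Burn 2 was below control 2, so the groups overlapped, and the log2 fold change of Ephb1 was 0.56. The edgeR adjusted p was 0.9998 for each of the 72 tested members other than Flrt3, Sema6a, Plxna4 and Dcc.

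Calls among the leading genes differed between settings. With no filter on low counts, which left 29007 genes, edgeR called Sema6a (adjusted p = 0.0123), and the adjusted p was 0.0531 for Flrt3 and 0.821 for Plxna4. The Wald test of DESeq2, which also changes the filter, called 28 genes (0.132% of 21260) higher, and among them were Sema6a at a log2 fold change of 1.15 (DESeq2 adjusted p = 9.54e-06), Flrt3 at 0.85 (DESeq2 adjusted p = 0.000968) and Plxna4 at 0.53 (DESeq2 adjusted p = 0.0319). By limma-voom, which called 3 genes (0.0171%), 0 members passed. A term for deeper against shallower libraries in the edgeR fit gave 17 calls higher (0.0970%) and 21 lower (0.120%). Among the higher ones were Flrt3 (edgeR adjusted p = 0.0379) and Sema6a (edgeR adjusted p = 0.0490), and 0 members were among the lower ones.

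Genes listed as spinal cord markers stood higher in the burn libraries too, though the cell source of their transcripts was not tested. All 11, listed for oligodendrocytes and central neurons, had positive log2 fold changes, from 0.08 to 2.18 with a median of 1.23. Their summed level was 258, 213 and 298 CPM after the burn and 190, 203 and 170 CPM in controls. None of the 11 was at 0 in any library, and edgeR called 0 of them. That sum came largely from Slc17a7, Mobp, Cldn11 and Aqp4, in each of which the groups overlapped. Slc17a7 averaged 88.5 CPM after the burn and 83.5 CPM in controls. In 6 of the 11 markers every burn library lay above every control library, against 4.33% of all tested genes. These 6 were scarce, the highest being Slc6a5 at means of 8.17 CPM after the burn and 2.63 CPM in controls. Mog, a myelin protein of oligodendrocytes, had 5.34, 2.02 and 4.43 CPM after the burn and 1.502, 1.56 and 0.591 CPM in controls. Gad2, the GABA-synthesizing enzyme of central inhibitory neurons, had 2.43, 1.46 and 3.41 CPM after the burn and 0.847, 0.723 and 0.327 CPM in controls. A further fit took the mean log2 level of these markers as a covariate, chosen after the data were seen. In it the log2 fold change was 0.77 for Sema6a, 1.02 for Flrt3, 0.53 for Plxna4 and 0.98 for Dcc. Efna5 and Ephb1 fell to 0.20 and 0.14, from 0.54 and 0.56 without the covariate. Epha6 and Sema4f rose to 0.48 and 0.38, from 0.36 and 0.28 without the covariate. The markers were themselves higher in the burn libraries, so that fit cannot cleanly separate marker level from group, and no gene was called in it. Of the 7 macrophage markers tested, 7 also had positive log2 fold changes, with a median of 0.33. All 10 pan-neuronal markers had negative log2 fold changes, with a median of -0.12 and 0 without overlap. Cartilage and bone markers had a median of -0.75 over 7 tested, of which Col2a1 alone was positive, at 0.14. In 3 of the 8 listed every burn library lay below every control library, against 2.91% of all tested genes. In 1 of the 8, Matn1, every burn library lay above, but it had 0 to 2 reads a library and was not tested. Of these 3 lists 0 genes were called, and their part in the guidance gene values was not tested.

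Promoters are shown for the members below the unadjusted threshold without overlap that had an entry in the RefSeq promoter table, which covers 250 bases before to 50 after the gene start (GRCm38.p6). These were Flrt3 at chr2:140671427-140671726, Sema4f at chr6:82939720-82940019 and Efna5 at chr17:62881268-62881567, all on the minus strand and printed 5′ to 3′ on that strand. Capitals mark CpG dinucleotides.
Flrt3: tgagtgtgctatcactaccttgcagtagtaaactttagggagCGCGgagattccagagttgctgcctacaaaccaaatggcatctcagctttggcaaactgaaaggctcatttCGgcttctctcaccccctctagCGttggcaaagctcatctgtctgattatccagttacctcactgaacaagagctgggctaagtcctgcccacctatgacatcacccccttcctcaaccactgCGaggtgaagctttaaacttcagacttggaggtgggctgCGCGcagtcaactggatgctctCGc
Sema4f: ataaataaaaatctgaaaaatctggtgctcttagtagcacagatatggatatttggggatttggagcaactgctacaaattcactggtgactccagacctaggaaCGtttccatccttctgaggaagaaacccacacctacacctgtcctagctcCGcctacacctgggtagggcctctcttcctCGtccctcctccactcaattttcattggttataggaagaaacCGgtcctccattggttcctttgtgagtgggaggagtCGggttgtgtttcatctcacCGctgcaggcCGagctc
Efna5: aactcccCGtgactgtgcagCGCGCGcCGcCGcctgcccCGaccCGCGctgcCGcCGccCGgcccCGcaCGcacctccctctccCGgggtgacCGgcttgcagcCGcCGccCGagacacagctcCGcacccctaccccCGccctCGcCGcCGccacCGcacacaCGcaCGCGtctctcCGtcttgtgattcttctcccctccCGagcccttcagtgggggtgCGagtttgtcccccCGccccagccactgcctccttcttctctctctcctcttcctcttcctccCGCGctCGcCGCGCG
The windows differ in composition. Efna5 holds 38 CpG and 73.3% G or C, Flrt3 holds 8 CpG and 51.3%, and Sema4f holds 7 CpG and 48.7%. Over the 83 promoters matched for 65 members the median was 19 CpG and 64.0% G or C, against 7 CpG and 52.7% over all 32851 promoters in the table. The AP-1 letters TGANTCA, read on both strands, stood in 3 of the member promoters (3.61%) and 7.81% of all promoters. The cAMP response element letters TGACGTCA, also read on both strands, stood in 1 member promoter (1.205%) and 1.79% of all. Neither run of letters was found in the 3 windows printed here, which says only that these letters are not in these windows.

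Levels per exon length ranged widely among the guidance genes. In controls, 14 of the 77 averaged at least 10 RPKM, 47 from 1 to under 10 RPKM and 16 under 1 RPKM, of which 3 (Dcc, Robo3 and Epha1) were under 0.1 RPKM. Plxnc1, the receptor of Sema7a, was first in all 6 libraries, and 7 genes were among the top 10 in every library.

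**Figure D3:**
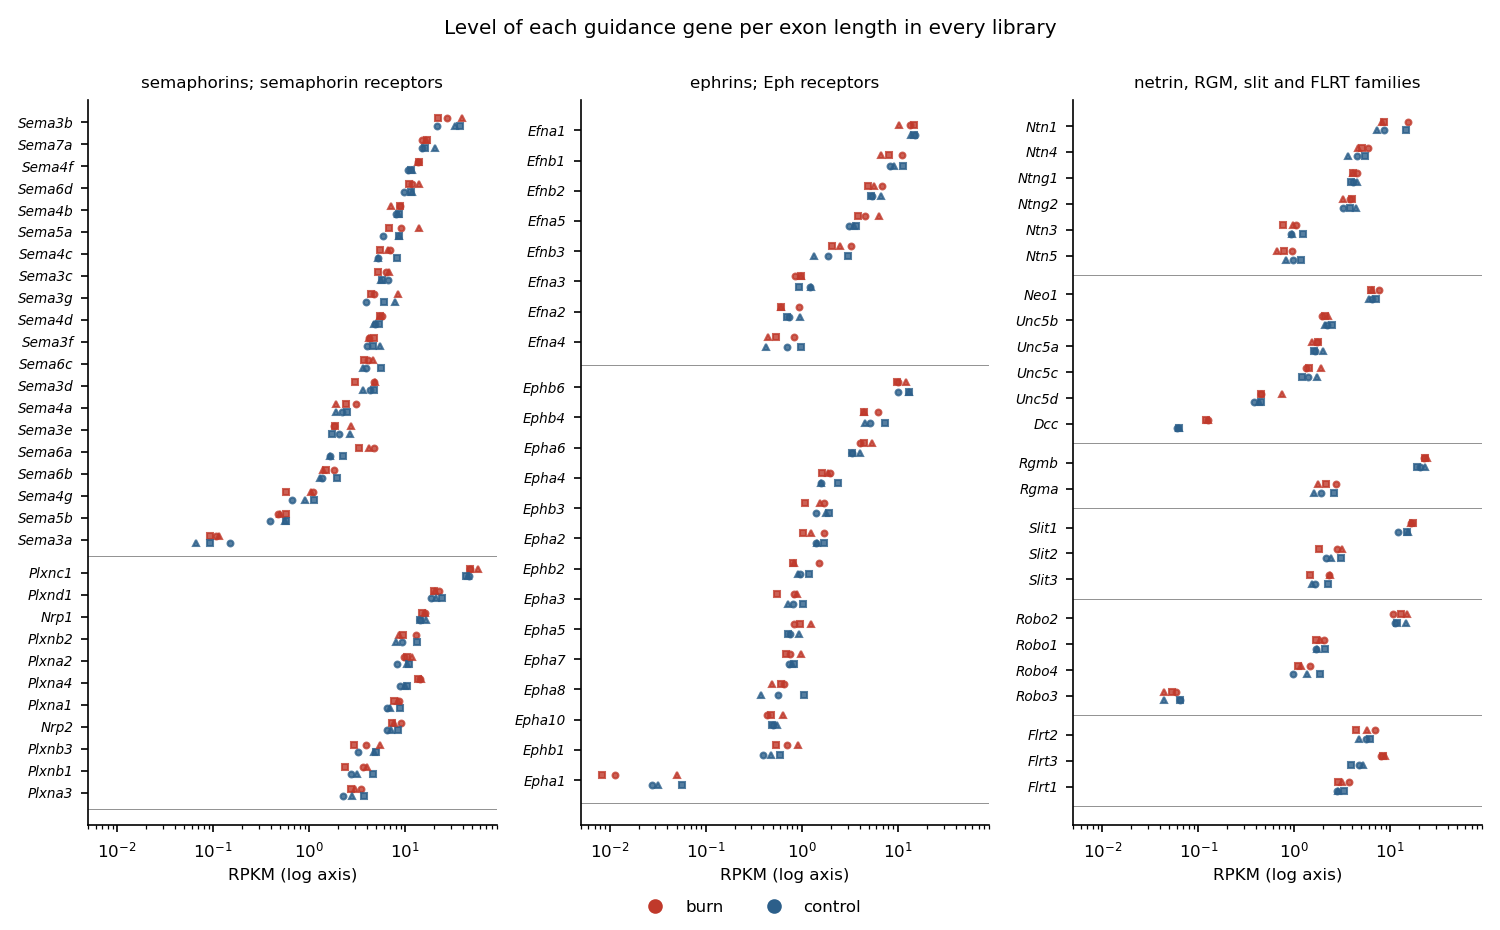
Level of each of the 77 guidance genes in every library, in RPKM on a log axis, with burn libraries drawn above control libraries in each row and genes ordered within a family by their control mean. Levels run from under 0.1 RPKM to over 40 RPKM; Plxnc1 is highest and Epha1, Robo3, Dcc and Sema3a lie lowest.

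Among semaphorins, the secreted Sema3b had 27.4, 21.9 and 39.4 RPKM after the burn and 21.7, 37.3 and 32.8 RPKM in controls. The libraries of each group were scattered and overlapped fully. Sema7a, a lipid-anchored semaphorin, had 15.1, 16.8 and 16.3 RPKM after the burn and 15.1, 16.3 and 20.6 RPKM in controls, where control 3 alone was high. The log2 fold change was -0.05 for Sema3b and -0.11 for Sema7a. Over the 20 semaphorins the median log2 fold change was 0.03, with 12 positive. The 7 secreted members of class 3 lay between -0.09 and 0.06, so the wide values were all in membrane-bound classes. Sema5a, a transmembrane semaphorin, had the highest log2 fold change of the family after Sema6a, 0.38 with a standard error of 0.28, and values of 170, 126 and 262 CPM after the burn against 109, 161 and 161 CPM in controls.

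Ephrin levels were led by Efna1, an EphA ligand known from endothelium, at 13.4, 14.7 and 10.3 RPKM after the burn and 14.997, 14.8 and 13.9 RPKM in controls. Burn 3 was lowest and control 1 highest, and the groups overlapped. Efnb1, a transmembrane ephrin, had 11.1, 8.13 and 6.65 RPKM after the burn and 8.27, 11.2 and 9.21 RPKM in controls. Of the 8 ephrins 5 had negative log2 fold changes, against 47.9% of all tested genes, with a median of -0.17 and none of the 5 below an unadjusted p of 0.05. Within the A class 4 of 5 were negative and Efna5 was the exception. Efna1, Efna3 and Efna4 are neighbours on chromosome 3, with 32.8 and 10.4 kb between them and no other protein-coding gene there.

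Efna3 was the ephrin with the lowest p on the negative side, at 2.08, 2.42 and 2.40 CPM after the burn and 2.98, 2.28 and 3.07 CPM in controls. Control 2 lay among the burn values. The log2 fold changes were -0.28 for Efna3 (rank 3007 by p) and -0.19 for Efna1 (rank 3387). An antisense gene, Gm15998, shares 344 exon bases with Efna3, at 7 to 32 reads in burn libraries and 8 to 29 reads in control libraries.

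Of the 6 netrins 3 had positive and 3 negative log2 fold changes, and 5 lay within 0.3 of 0. Ntn1, the secreted ligand of Dcc and Unc5 receptors, had 15.2, 8.54 and 8.23 RPKM after the burn and 8.56, 14.6 and 7.32 RPKM in controls. Burn 1 and control 2 were each far above the rest of their group. Ntn4, a netrin of basement membranes, had 5.80, 5.01 and 4.602 RPKM after the burn and 4.45, 5.41 and 3.63 RPKM in controls, and the log2 fold change was 0.20 against 0.07 for Ntn1. Ntn5, a scarce netrin, had the most negative log2 fold change of all tested members, -0.31 at rank 3492 by p, from 2.12, 1.72 and 1.46 CPM after the burn and 2.13, 2.62 and 1.83 CPM in controls. Burn 1 and control 1 were nearly equal, and the groups overlapped. Sec1 shares 519 exon bases with Ntn5.

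Rgmb, a lipid-anchored co-receptor of bone morphogenetic proteins and ligand of neogenin, had 22.3, 22.7 and 24.3 RPKM after the burn and 20.4, 19.1 and 22.8 RPKM in controls. Control 3 reached the burn values. Rgma was lower, at 2.71, 2.14 and 1.78 RPKM after the burn and 1.90, 2.58 and 1.61 RPKM in controls, with full overlap. The log2 fold changes were 0.15 for Rgmb and 0.12 for Rgma.

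Slit1, a secreted repellent, was the most abundant slit per exon length. It had 16.6, 17.2 and 16.2 RPKM after the burn and 11.9, 15.01 and 15.4 RPKM in controls. All burn values were above all control values, by a small step over controls 2 and 3. Slit1 ranked 1033 by p with a log2 fold change of 0.24. Slit2 had 2.798, 1.82 and 3.13 RPKM after the burn and 2.13, 3.05 and 2.42 RPKM in controls, and its log2 fold change was 0.03. The other FLRT gene among the 2 most abundant of its family, Flrt2, had 6.97, 4.37 and 5.77 RPKM after the burn and 5.56, 6.13 and 4.70 RPKM in controls. Burn libraries enclosed the control values, and the log2 fold change of Flrt2 was 0.06; on the same scale Flrt3 had 8.02, 8.28 and 8.84 RPKM after the burn and 4.69, 3.89 and 5.23 RPKM in controls. The burn means were 8.38 ± 0.422 RPKM for Flrt3 and 5.70 ± 1.30 RPKM for Flrt2, and the control means were 4.604 ± 0.675 and 5.46 ± 0.722 RPKM (SD, n = 3 each).

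Among semaphorin receptors, Plxnc1 had 47.5, 47.6 and 57.2 RPKM after the burn and 46.0, 42.9 and 45.5 RPKM in controls. The groups did not overlap, but burn 1 and burn 2 were within 2 RPKM of control 1, and burn 3 was the high value. Its log2 fold change of 0.18 had a standard error of 0.12. Plxnd1, a receptor of Sema3e known from endothelium, had 22.7, 19.8 and 20.4 RPKM after the burn and 18.8, 24.4 and 21.1 RPKM in controls, with overlap and a log2 fold change of -0.03. The neuropilins, co-receptors of class 3 semaphorins, had log2 fold changes of 0.06 for Nrp1 and 0.12 for Nrp2. Over the 11 semaphorin receptors 8 were positive and the median was 0.07.

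Eph receptors were led per exon length by Ephb6, a member without kinase activity, at 10.2, 9.90 and 12.2 RPKM after the burn and 10.01, 13.2 and 12.99 RPKM in controls. Control 1 lay among the burn values. Ephb4, a receptor known from veins, had 6.22, 4.48 and 4.40 RPKM after the burn and 5.18, 7.33 and 4.55 RPKM in controls. The log2 fold changes were -0.16 for Ephb6 (rank 4423 by p) and -0.17 for Ephb4. Of the 13 tested Eph receptors 6 were positive and 7 negative, with a median of -0.02.

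Ephb3, a receptor of B-class ephrins, and Epha2, a receptor of A-class ephrins, completed the 6 lowest p values on the negative side. Ephb3 had 11.2, 7.22 and 10.4 CPM after the burn and 9.34, 12.8 and 11.9 CPM in controls, with a log2 fold change of -0.23 (rank 4213 by p). Epha2 had 7.91, 4.87 and 5.86 CPM after the burn and 6.66, 8.07 and 6.71 CPM in controls, with a log2 fold change of -0.20 (rank 5532 by p). In both genes burn 1 lay inside the control range and burn 2 was the lowest of all 6 libraries.

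The remaining netrin and RGM receptors were Neo1 and the 4 Unc5 genes. Neo1, which codes for neogenin, had 7.56, 6.23 and 6.46 RPKM after the burn and 6.37, 7.04 and 5.97 RPKM in controls, and Unc5b, a repulsive netrin receptor, had 1.93, 2.11 and 2.23 RPKM after the burn and 2.19, 2.47 and 2.10 RPKM in controls. Both sets overlapped, with log2 fold changes of 0.06 for Neo1 and -0.11 for Unc5b. Unc5d, which can bind FLRT proteins, had 4.11, 4.17 and 6.87 CPM after the burn and 3.496, 4.17 and 3.98 CPM in controls. Burn 3 was the high value, and the log2 fold change of Unc5d was 0.39. Robo2, the most abundant slit receptor, had 10.7, 12.97 and 15.04 RPKM after the burn and 11.3, 11.6 and 14.4 RPKM in controls. Robo1 had 2.03, 1.69 and 1.84 RPKM after the burn and 1.68, 2.07 and 1.71 RPKM in controls. The groups overlapped in both Robo genes, and the log2 fold changes were 0.05 for Robo2 and 0.03 for Robo1.

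Partners of these receptors inside and beside the cell, such as adaptors, kinases and regulators of small GTPases, were counted from a separate list. Of 60 listed, 57 were matched by symbol and tested. Those without a match were the latrophilins Adgrl1, Adgrl2 and Adgrl3, so these partners of FLRT proteins were not covered. By edgeR 0 of the 57 were called. At an unadjusted p under 0.05, 4 were higher and 0 were lower, where the same threshold took 2.04% and 0.924% of all tested genes. The median log2 fold change was 0.07, and 40 were positive, against 52.1% of all tested genes. The lowest p was that of Draxin, a secreted guidance protein that binds Dcc, with 3.75, 3.58 and 2.97 CPM after the burn and 1.99, 1.89 and 2.02 CPM in controls. The groups were well apart, and the log2 fold change was 0.79 at rank 56 by p among all tested genes. The other 3 were Srgap1, a GTPase regulator that binds Robo receptors, at 0.50, Rnd1, a GTPase that binds plexins, at 0.71, and Enah, an actin regulator, at 0.34.

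Differences within the groups were wide for many guidance genes and followed the same libraries. Burn 1 and control 2 had the fewest reads assigned to genes of their groups, 22023565 and 17273908. The part of read number in the pattern that follows was not tested. Burn 1 was the highest burn library and control 2 the highest control library in 33 of the 76 tested members (43.4%), against 21.5% of all tested genes. The reverse, with both lowest, held in 8 members (10.5%), against 17.2% of all genes. Those 8 were Efna3, Epha5, Epha10, Flrt3, Plxnc1, Rgmb, Sema3e and Unc5c. On the log2 CPM scale, Ntn1 in burn 1 was 0.86 above the mean of burn 2 and burn 3, and in control 2 it was 0.89 above the mean of control 1 and control 3. Sema6a was also among the 33, by 0.32 in burn 1 and 0.44 in control 2, while Plxna4 differed by -0.00032 and 0.17.

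Summed levels of fibroblast markers were 7258, 4489 and 3877 CPM after the burn and 6867, 7790 and 4318 CPM in controls. Those of endothelial markers were 266, 220 and 203 CPM after the burn and 207, 293 and 220 CPM in controls. Both sums were highest in burn 1 within the burn group and in control 2 within the control group. Dcn, Lum and Dpt among the fibroblast markers, and Cldn5 and Egfl7 among the endothelial ones, did not follow this pattern. The part of both lists in the guidance gene values was not tested. The log2 fold changes of the 8 endothelial markers lay between -0.17 and 0.10.

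The deeper libraries, burn 3 and control 3, lay above both shallower libraries of their own group in 11 tested members (14.5%), against 19.0% of all tested genes. They lay below both in 12 tested members (15.8%), beside 3686 of all 17534 tested genes. Sema3g, a secreted semaphorin, had 21.6, 19.9 and 38.2 CPM in burn libraries 1, 2 and 3 and 17.8, 27.1 and 35.3 CPM in control libraries 1, 2 and 3, so the third library was highest in both groups while the log2 fold change, burn over control, was -0.01. Unc5c, a netrin receptor, had 25.4, 27.4 and 36.0 CPM after the burn and 26.4, 23.0 and 32.7 CPM in controls, again highest in the third library of each group.

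**Figure D4:**
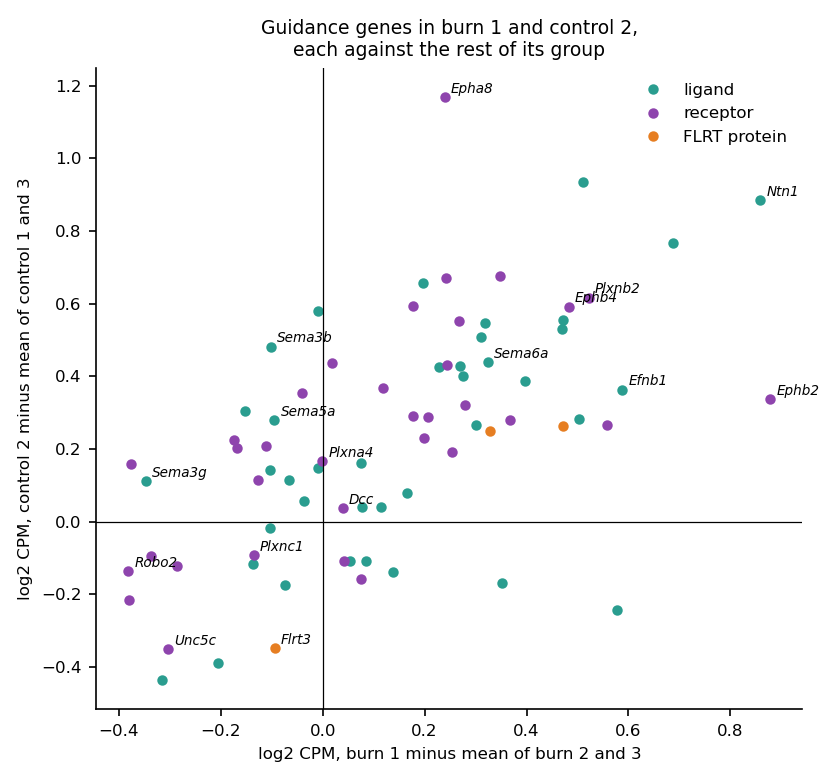
Each of the 76 tested guidance genes by its log2 CPM in burn 1 minus the mean of burn 2 and burn 3 (horizontal) and in control 2 minus the mean of control 1 and control 3 (vertical); colours mark ligands, receptors and FLRT proteins. Most points lie in the upper right, with Ntn1 at 0.86 and 0.89, while Flrt3 lies in the lower left at -0.09 and -0.35.

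In the genome, guidance genes are long. The median span from start to end was 46.3 kb over the 77 members, against 25.0 kb over 14559 tested protein-coding genes, and 34 members (44.2%) were over 100 kb, against 15.2%. Dcc spans 1097 kb (chr18:71253634-72351069), Plxna4 444 kb (chr6:32144268-32588192), Efna5 277 kb (chr17:62604184-62881317) and Sema6a 133 kb (chr18:47235598-47368870), while Flrt3 spans 20.6 kb and Sema4f 27.9 kb (chr6:82911885-82939769). The genes with the lowest p were thus both longer and shorter than the median of the set. Robo3 and Robo4 lie 0.553 kb apart on opposite strands of chromosome 9, and Robo1 and Robo2 lie 846 kb apart on chromosome 16 with no protein-coding gene between them. Exons of Plxna4 share 110 bases with the antisense gene Plxna4os3, and exons of Epha6 share 107 bases with Gm9017; without the strand setting, reads from these bases cannot be told apart.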

How the data were processed

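Libraries were stranded total RNA, per the labels' protocols, read from 1 end over 75 nucleotides. The authors deposited raw read counts per gene symbol, 1 table per library. Per the submitters' processing notes, the tools were STAR, SAMtools and HTSeq and the builds were mm10 and GRCm38. The sources used here do not state the annotation release or the strand setting. HTSeq tallies that name no gene (49.2% to 56.2% of entries) were left out, and the intervals that reads give cover counting error only, since there were no molecular identifiers. Pairs of libraries within a group differed far beyond counting noise (chi-square over degrees of freedom 40.5 to 189), so each counted as 1 replicate.

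Members and gene lists were chosen with earlier results of these data known. Values in every library are given for the 8 members with the lowest p on the positive side, the 6 on the negative side, and the 2 most abundant in controls of each family; Nrp1, Nrp2, Sema3g, Sema5a, Unc5c, Unc5d and the partner genes were named after their values were seen.

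Counts were tested over all genes in R 4.3.3 with edgeR 4.0.16 (filterByExpr with a minimum count of 10 and total of 15, TMM scaling, robust glmQLFit and two-sided glmQLFTest, group as the only term; common biological coefficient of variation 0.221), with Benjamini-Hochberg adjustment. The code was tested on simulated data. A standard error is the log2 fold change divided by the square root of F. CPM use scaled library sizes; RPKM divide CPM by the exon union length in GENCODE mouse release M21 on GRCm38. Differences within depth classes and between libraries use log2 CPM with 0.1 added. Alternatives were other scaling, no or a stricter filter, DESeq2 1.42.0 (which gave no adjusted p for 17666 genes), limma 3.58.1 voom, other thresholds, a depth term, the shallower libraries alone, leaving out each library, and a replicate block; a spinal cord covariate and a crossed block were added after seeing the data. Libraries 1 and 2 share numbers between groups in the titles, which name no shared animal or day. Figures used matplotlib 3.10.9.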

Additional observations from a re-analysis of the deposited data

How the results depend on the processing

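The count of guidance genes called stayed at 0 with other scaling, a stricter filter, limma-voom, the shallower libraries alone, the spinal cord covariate, an adjusted p under 0.1, and without each library in turn (0 to 0). It was 1 with no filter (Sema6a, edgeR adjusted p = 0.0123), 3 with DESeq2, 2 with the depth term and 7 at an unadjusted p under 0.05. Over all genes the count of 4 became 14 with no filter, 28 with DESeq2, 38 with the depth term, 15 in the shallower libraries alone, 0 with the spinal cord covariate, 7 at an adjusted p under 0.1 and 519 at an unadjusted p under 0.05. Leaving out single libraries gave 1 to 6 calls, with 1 without burn 2, control 1, control 2 or control 3. The cause was not tested. The replicate block over libraries 1 and 2 gave 4 calls over all genes (4 higher, 0 lower), against 15 (11 higher, 4 lower) in the same 4 libraries without it, and 0 members in both; whether the 4 are those of the 6 libraries was not compared. At an unadjusted p under 0.05 it left 4 members higher and 0 lower, beside 151 genes higher and 285 lower. The deviations of same-numbered libraries correlated at r = -0.39 across 17534 genes, which are not independent replicates. The crossed pairing, a crossed replicate block added after seeing the data, gave 413 calls over all genes and 3 members. It sets burn 1 with control 2, a pattern seen in these same libraries, so its calls cannot be relied on. The median of the members ranged from -0.027 to 0.13 when single libraries were left out. For Flrt3, Sema6a, Plxna4 and Dcc the sign was positive in all 17 alternatives run. These genes were picked for low p in the same libraries and had no overlap between groups, so most of the alternatives could hardly reverse it. Of the 31 genes named by rule, 18 kept their sign in all 17, and the other 13 had main log2 fold changes of at most 0.20 in size. With no scaling factor Robo1 became -5.5e-05 and Slit2 -0.0078. In the shallower libraries alone Flrt2 became -0.031, Sema7a 0.040 and Slit2 -0.15. With the replicate block Flrt2 became -0.065, Sema7a 0.038 and Slit2 -0.16. With the spinal cord covariate Neo1 became -0.13, Flrt2 -0.48, Ntn1 -0.56, Ntn4 -0.082, Rgma -0.15, Robo1 -0.16, Sema7a 0.24 and Slit2 -0.49. Without single libraries the log2 fold change ranged from -0.37 to 0.018 for Efnb1, -0.35 to 0.046 for Ephb4, -0.11 to 0.22 for Flrt2, -0.025 to 0.13 for Neo1, -0.28 to 0.42 for Ntn1, -0.12 to 0.068 for Plxnd1, -0.048 to 0.33 for Rgma, -0.043 to 0.13 for Robo1, -0.061 to 0.18 for Robo2, -0.30 to 0.13 for Sema3b, -0.20 to 0.047 for Sema7a and -0.12 to 0.23 for Slit2. Depth limits the scarce members most: Dcc rests on 15 to 110 reads a library, and Epha1 was not tested.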

Other observations

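A principal component analysis of the tested members alone placed burn 1 and control 2 together at -1.74 and -1.80 on the first component. That component held 37.5% of the variance, and the other 4 libraries lay between -0.50 and 1.52. Burn 1 and control 2 also had the fewest reads assigned to genes of their groups.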
